A study of Sus scrofa with 63 samples.

Results

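The subject is pig skin 72 h after contact with sulfur mustard, set against unexposed skin of the same time. The members are the 3 arrays labelled as exposed and the 3 labelled as exposure control at 72 h, which are 6 of the 63 arrays of the series, and all 23999 probe sets that are not array controls were compared. The animals were female Yorkshire crossbred pigs without specific pathogens, depilated on the ventral abdomen before exposure. Exposed sites received 400 µL of undiluted sulfur mustard for 8 min and became lesions of 3 cm, control sites were left unexposed on the same animals, and a sham animal, with 1 array at 72 h, was prepared but not exposed. Total RNA from 8 mm punch biopsies was hybridised to Affymetrix Porcine Genome arrays, and the same design was followed at 9 times with 3 animals for exposed and control skin at each. The labels do not say which exposed and control arrays came from 1 animal, and the age of the animals is not given in the sources used here.

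Sulfur mustard is a bifunctional alkylating agent and blister agent that crosslinks DNA and also reacts with proteins and thiols. In skin it kills basal keratinocytes, separates the epidermis from the dermis and is followed by an inflammatory reaction and slow healing. Neutrophils enter injured skin first, guided by chemokines, and monocytes follow and become macrophages, which clear debris, while fibroblasts and keratinocytes later rebuild matrix and epidermis. The epidermis itself is a stack of keratinocytes that move outwards, switch on suprabasal keratins and end as the cornified barrier. A punch biopsy mixes all of these cells, so that fewer cells of a type and less RNA per cell cannot be told apart in these data.

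The histology scores given in the labels for exposed replicates 1, 2 and 3 were 3, 4 and 4 for epidermal necrosis and 4 in each for dermal necrosis. Pustular epidermitis was scored 3, 0 and 4, vesicles 1, 1 and 3, and follicular damage 2, 1 and 0. All control and sham skin of this time had a score of 0 for these 5 features. Median signals of the arrays at 72 h ranged over 7.81 to 7.86 in log2 units. Among the 617 genes that were called higher, exposed replicate 3 was the highest exposed array for 367, and exposed replicate 2 was the lowest for 414. Over all probe sets the SD of the difference between exposed arrays was 0.272 (replicates 1 and 2), 0.308 (1 and 3) and 0.368 (2 and 3). Between control arrays it was 0.316, 0.284 and 0.329. Replicates 1 and 2 shared a day of sacrifice and replicate 3 had another, while RNA of control replicate 3 was extracted on another day than that of the other 5 arrays, so values without exposed replicate 3 are given beside the results that rest on it.

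Exposed and control skin differed in 2317 of 23999 probe sets (9.65%) at an adjusted p below 0.05 in a linear model of all 63 arrays, of which 1296 were higher (5.4%) and 1021 lower (4.25%) in exposed skin. At least 2-fold changes were seen in 264 higher (1.1%) and 182 lower probe sets (0.758%). Blocking on the replicate number gave 1845 higher and 1549 lower probe sets. Without exposed replicate 3 the model called 662 higher and 419 lower, and without control replicate 2 it called 843 higher.

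Only probe sets with 1 gene symbol can be named, and 1129 of the 2317 called probe sets have none or several. Taking the brightest probe set of each gene left 6765 genes, of which 617 were higher (9.12%) and 279 lower (4.12%) in exposed skin, with a median difference over all genes of 0.035 on the log2 scale. Blocking on the replicate number gave 868 higher (12.8%) and 411 lower genes (6.08%). The direction was shared by 3 of 3 same-numbered pairs for 612 of the higher and 275 of the lower genes. These genes were called on the same arrays, so the shared direction is no further support. In 1392 genes (20.6%) the 3 exposed arrays all lay above the 3 control arrays, and in 763 (11.3%) all lay below. Genes named below for a large or called difference were likely to be among these, so a lack of overlap in them describes the values and is no further support. Of 290 called genes with several probe sets, 241 had all of them on 1 side of 0 and 49 did not. All differences below are exposed minus control in log2 units with the standard error of the model, n = 3 arrays in each group, and levels are log2 signals of 1 probe set, which cannot be set against those of another gene.

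The largest rise was that of ARG1, the arginase that turns arginine into ornithine and urea. It read 10.23, 9.96 and 13.06 in exposed skin, against 6.77, 4.93 and 6.00 in control skin, a difference of 5.18 ± 0.74 (36.4-fold, adjusted p = 6.67e-06). CXCL8, the main neutrophil chemokine of pig and human skin, read 10.29, 9.51 and 12.66 in exposed against 6.01, 4.87 and 7.06 in control skin, 28.7-fold higher (4.84 ± 0.70, adjusted p = 7.37e-06). In both genes the groups were far apart and exposed replicate 3 was the highest. PPBP, the gene of a platelet chemokine that attracts neutrophils, read 9.84, 9.30 and 10.74 in exposed and 6.11, 4.99 and 5.26 in control skin, 22.8-fold higher (4.51 ± 0.50, adjusted p = 7.33e-08). Control readings of ARG1, CXCL8 and PPBP lay below the median signals of the arrays at 72 h (7.81 to 7.86), and fold values are less certain near background. S100A9, a calcium-binding protein that neutrophils carry in bulk, read 12.20, 11.69 and 12.75 against 10.02, 7.43 and 8.21 (3.66 ± 0.70, adjusted p = 0.000369), with control replicate 1 well above the other two control arrays. SDS, the serine dehydratase gene of amino acid breakdown, read 8.87, 8.45 and 12.27 in exposed against 6.72, 6.31 and 6.39 in control skin (3.39 ± 0.57, adjusted p = 7.74e-05). Its difference was 2.19 without exposed replicate 3, still past the threshold (adjusted p = 0.0037).

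The deepest fall was that of STMN2, which encodes stathmin-2, a tubulin-binding protein of neurons and their axons. It read 5.72, 6.82 and 5.80 in exposed skin, against 9.51, 9.16 and 9.94 in control skin (-3.43 ± 0.47, adjusted p = 3.05e-06). KRT1, the keratin of suprabasal keratinocytes, read 10.38, 10.56 and 11.61 in exposed and 14.21, 14.00 and 14.17 in control skin, 9.71-fold lower (-3.28 ± 0.27, adjusted p = 7.45e-11). SULT1E1, the estrogen sulfotransferase gene, read 5.87, 5.83 and 5.75 in exposed against 9.48, 8.84 and 8.65 in control skin (-3.17 ± 0.44, adjusted p = 3.53e-06). None of these 3 genes had overlapping groups. The 3 exposed arrays of SULT1E1 lay within 0.13 of each other, but well below the median signals of the arrays at 72 h (7.81 to 7.86). Signal processing narrows differences near background. HOXA9, a homeobox gene that marks position along the body, read 7.07, 7.74 and 6.87 in exposed and 9.40, 10.31 and 9.56 in control skin (-2.53 ± 0.33, adjusted p = 1.48e-06). The sham array read 7.73 for HOXA9, near the exposed arrays, and against it the difference was -0.51 and did not pass the test (adjusted p = 0.633).

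**Figure D1:**
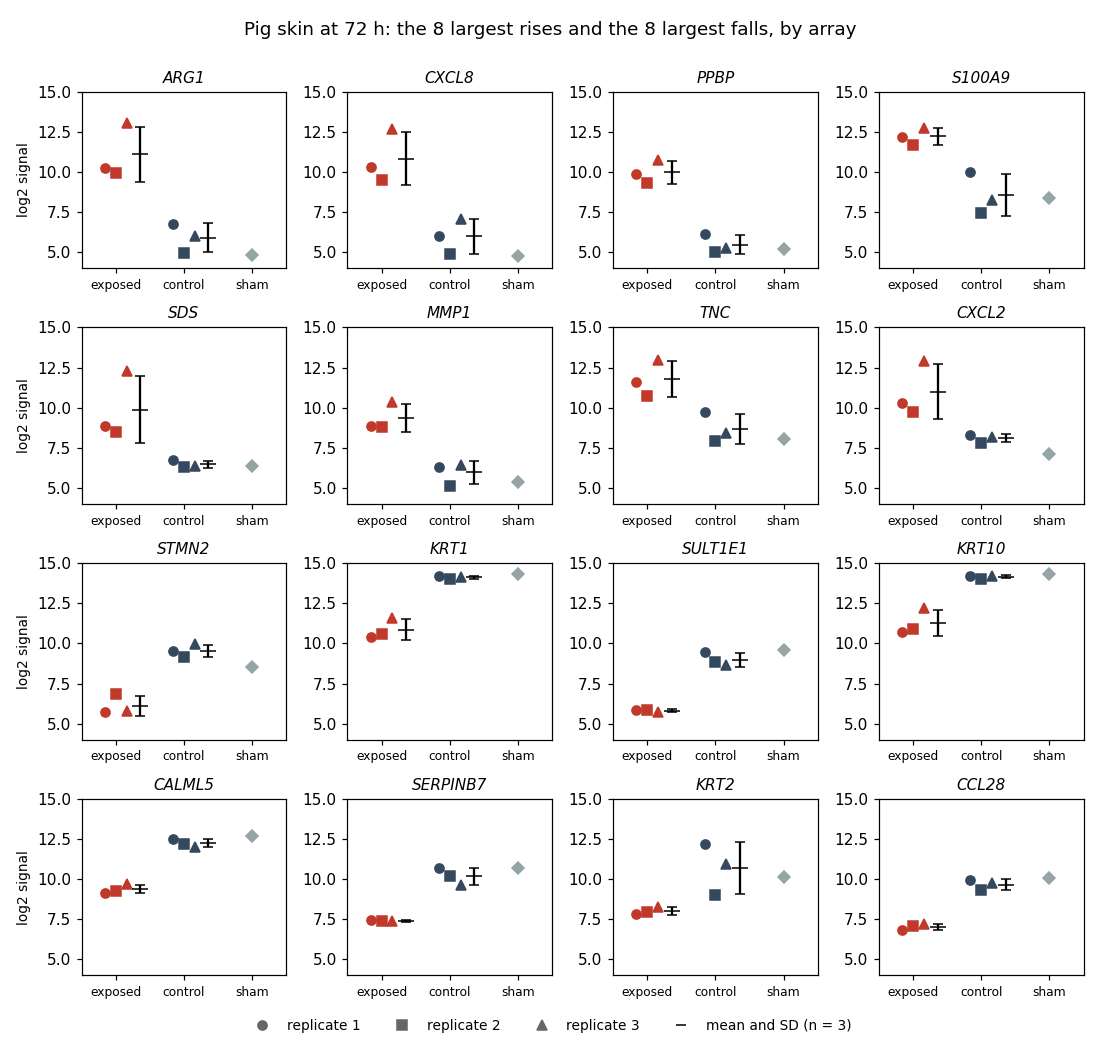
Log2 signal of each array at 72 h for the 8 genes with the largest rise (top 2 rows) and the 8 with the largest fall (bottom 2 rows), in exposed, control and sham skin; marker shapes give the replicate number and black bars the mean and SD of 3 arrays. The exposed and control arrays do not overlap in any of the 16 genes, and exposed replicate 3 is the highest exposed array in all 8 rising genes shown.

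The genes were also grouped into 46 lists of skin cell types, pathways and complexes, which hold 737 measured genes. Of these 208 passed the test, 160 higher and 48 lower in exposed skin, and without exposed replicate 3 the total was 129. No list was tested as a set: each is described by its counts and its median, to be read against the 9.12% and 4.12% of all genes and the median of 0.035.

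**Figure D2:**
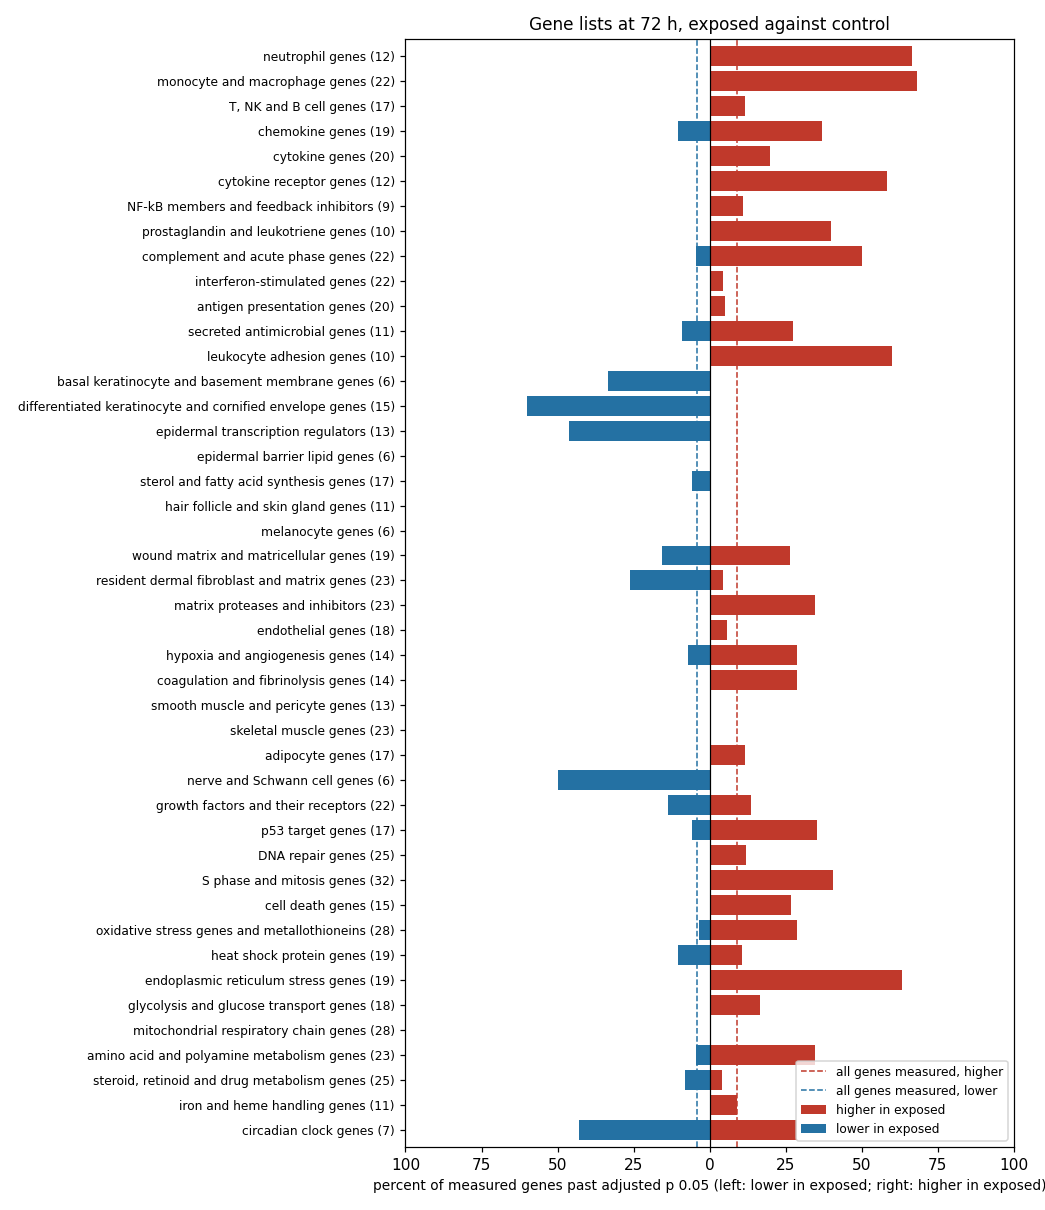
Share of the measured genes of each list past an adjusted p of 0.05 at 72 h, higher in exposed skin to the right and lower to the left, with the number of measured genes in brackets; lists with fewer than 6 measured genes are left out. Dashed lines mark the share of all 6765 genes, 9.12% higher and 4.12% lower; the monocyte and macrophage, neutrophil and endoplasmic reticulum stress lists have the longest bars to the right and the differentiated keratinocyte list the longest to the left.

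Genes of neutrophils, the phagocytes that enter a wound first, were higher in 8 of 12 measured cases and lower in 0, with a median of 1.08. S100A8, the partner of S100A9, read 8.87, 8.88 and 9.15 in exposed against 7.54, 6.58 and 6.93 in control skin (1.95 ± 0.29, adjusted p = 1.61e-05). S100A12, the third calgranulin, rose by 1.84 ± 0.37 and NCF4, a cytosolic subunit of the phagocyte NADPH oxidase, by 1.60 ± 0.28 (adjusted p = 0.000671 and 0.000141), and neither gene's groups overlapped. TREM1, an amplifying receptor of neutrophils and monocytes, read 6.83, 6.35 and 9.32 in exposed and 6.11, 5.71 and 5.73 in control skin (1.65 ± 0.40, adjusted p = 0.00435). Its difference was 0.74 without exposed replicate 3 and no longer passed (adjusted p = 0.195), and 6 genes of the list were then called.

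Monocyte and macrophage genes were higher in 15 of 22 and lower in 0, with a median of 0.85, and between 11 and 14 passed when 1 array was left out. SLC11A1, which encodes a metal ion transporter of phagosomes, read 10.68, 10.23 and 10.88 in exposed against 8.51, 7.36 and 7.53 in control skin (2.80 ± 0.25, 6.96-fold, adjusted p = 4.85e-10). CCR1, a receptor for CC chemokines, read 10.00, 9.31 and 10.31 in exposed and 7.93, 7.54 and 7.71 in control skin (2.14 ± 0.28, adjusted p = 1.98e-06). Both genes separated the groups by more than 1 log2 unit. AIF1, an actin-binding protein of macrophages, rose by 1.36 ± 0.25 and CD14, the co-receptor for lipopolysaccharide, by 1.35 ± 0.25 (adjusted p = 0.000254 and 0.000328). CD163, the hemoglobin scavenger receptor of tissue macrophages, read 12.13, 12.16 and 13.02 in exposed against 10.98, 11.43 and 10.54 in control skin (1.45 ± 0.38, adjusted p = 0.00911). Without exposed replicate 3 it missed the threshold (adjusted p = 0.114), as it did without control replicate 3 (adjusted p = 0.0673). CLEC5A, a myeloid lectin receptor outside the list, read 7.38, 6.94 and 8.36 in exposed and 5.71, 5.21 and 5.39 in control skin (2.12 ± 0.27, adjusted p = 9.05e-07).

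Among the markers set down for cell types, 2 of 6 for keratinocytes were measured (the suprabasal KRT1 and KRT10) and 1 of 3 for Schwann cells (S100B). These genes were lower and are described with their tissues. For neutrophils 2 of 5 were measured (S100A8 and S100A9) and for macrophages 3 of 5 (CD163, CD14 and MRC1), and all were higher. Of 17 genes of T, NK and B cells 2 passed, CD4 (0.41 ± 0.13) and CD8B (0.57 ± 0.15), with a list median of 0.41, and with the replicate block 4 passed. CD4 lost its call without either of control replicates 1 and 3 or exposed replicates 2 and 3 (adjusted p of 0.0556 to 0.135), and CD8B lost it without exposed replicate 1 (adjusted p = 0.0593). The 4 fibroblast markers measured (COL1A2, COL3A1, DCN and LUM), 4 endothelial markers, 3 smooth muscle markers, 3 adipocyte markers and 2 melanocyte markers gave no call. KIT, the mast cell marker measured, read 8.17, 8.17 and 8.51 in exposed against 8.22, 8.09 and 8.44 in control skin, a difference of 0.036 that did not pass.

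Chemokines, the secreted proteins that steer leukocytes, moved in both directions: 7 of 19 were higher and 2 lower (median 0.52). CXCL2, another neutrophil attractant, read 10.32, 9.73 and 12.93 in exposed against 8.29, 7.81 and 8.14 in control skin (2.92 ± 0.46, adjusted p = 3.27e-05). CCL3L1, a CC chemokine that attracts monocytes and lymphocytes, read 9.95, 9.61 and 12.50 in exposed and 8.47, 8.06 and 8.12 in control skin (2.47 ± 0.36, adjusted p = 1.1e-05). It was 1.56 without exposed replicate 3 and still passed. CCL2, the classic monocyte attractant, read 12.67, 11.87 and 12.43 in exposed against 11.47, 10.56 and 10.03 in control skin (1.63 ± 0.36), and CCL4 and CXCL16 rose by 1.60 and 1.10. CCL4 was at 0.70 without exposed replicate 3 and did not pass (adjusted p = 0.296), and CXCL16 lost its call without exposed replicates 1 or 3 or control replicates 2 or 3 (adjusted p of 0.103 to 0.174), so that 5 chemokine genes were higher without exposed replicate 3. CCL28 and CCL27, which epithelial cells and keratinocytes make to attract lymphocytes, went the other way. CCL28 read 6.84, 7.06 and 7.20 in exposed against 9.96, 9.30 and 9.74 in control skin (-2.64 ± 0.36, adjusted p = 4.01e-06), and CCL27 fell by 1.39. Without control replicate 1 CCL27 missed the threshold (adjusted p = 0.0618).

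Among 20 cytokine genes 4 were higher, and 1 was without exposed replicate 3. IL1B, the secreted interleukin of activated macrophages, read 9.26, 8.62 and 13.16 in exposed and 8.22, 7.99 and 8.43 in control skin (2.13 ± 0.50, adjusted p = 0.00385). IL1A, which damaged keratinocytes also release, read 7.99, 7.62 and 10.96 against 7.58, 7.04 and 6.98 (1.65 ± 0.41, adjusted p = 0.00521). Without exposed replicate 3 the differences were 0.72 for IL1B (adjusted p = 0.115) and 0.60 for IL1A (adjusted p = 0.214). IL6, a driver of the acute phase, read 7.88, 6.71 and 9.78 in exposed and 6.48, 6.02 and 6.22 in control skin (1.89 ± 0.37, adjusted p = 0.000508), and kept its call in all 6 fits without 1 array, with 1.06 without exposed replicate 3. IL10, an anti-inflammatory cytokine, rose by 1.05 ± 0.24 (adjusted p = 0.0033), and without exposed replicate 3 its adjusted p was 0.0683.

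**Figure D3:**
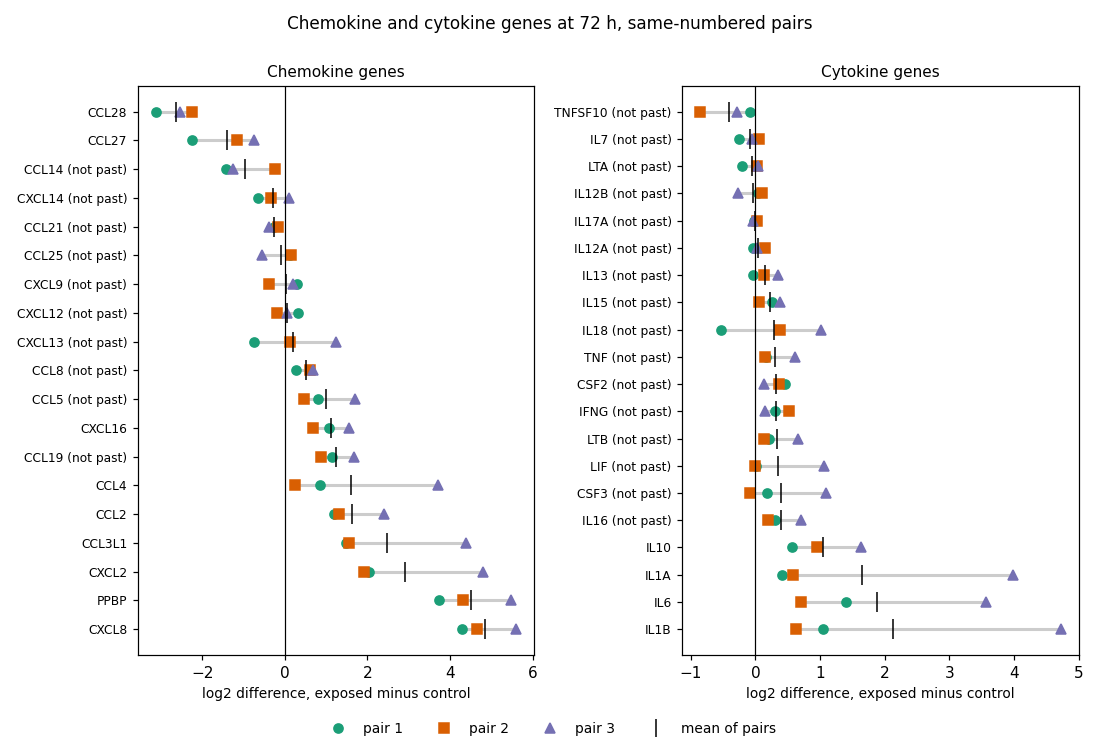
Log2 difference between exposed and control skin of the same replicate number at 72 h for 19 chemokine genes (left) and 20 cytokine genes (right); symbols are the 3 pairs, the vertical tick is their mean, and genes marked as not past missed the adjusted p of 0.05. Pair 3 lies far to the right of the other pairs in IL1B, IL1A, CCL3L1 and CCL4, while CCL28 is below 0 in all 3 pairs.

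Cytokine receptor genes were higher in 7 of 12 and lower in 0 (median 0.68), and 4 of them were called without exposed replicate 3. IL4R, the receptor chain for interleukins 4 and 13, read 10.77, 10.17 and 11.26 in exposed against 9.69, 9.45 and 9.19 in control skin (1.29 ± 0.19, adjusted p = 8.41e-06). IL2RG, the chain shared by several interleukin receptors, rose by 1.65 ± 0.32 (adjusted p = 0.000535). IL1R1, the signalling receptor of interleukin 1, rose by 0.83 ± 0.18 and was at 0.51 without exposed replicate 3, where it did not pass (adjusted p = 0.0895). Of 9 NF-kB members and feedback inhibitors 1 passed, TNIP1, an inhibitor of NF-kB signalling (0.47 ± 0.12). It lost the call without exposed replicate 3 (adjusted p = 0.116) or control replicate 3 (adjusted p = 0.0738), and with the replicate block 2 genes of the list passed.

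Leukocyte adhesion genes were higher in 6 of 10 and lower in 0 (median 0.68). ICAM1, the endothelial and epithelial ligand of leukocyte integrins, read 10.67, 10.33 and 11.45 in exposed against 9.53, 9.19 and 9.02 in control skin (1.57 ± 0.27, adjusted p = 0.000106). SELP, the P-selectin of platelets and endothelium on which leukocytes roll, read 8.85, 8.20 and 9.08 in exposed and 8.11, 7.31 and 7.83 in control skin (0.96 ± 0.17, adjusted p = 0.000201). SELE, the E-selectin gene, had overlapping groups, at 8.44, 7.18 and 8.56 in exposed against 7.50, 6.62 and 6.53 in control skin (1.18 ± 0.28). Its adjusted p of 0.00385 became 0.0705 without exposed replicate 3, and without that array 4 genes of the list were called.

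Complement and acute phase genes were higher in 11 of 22 and lower in 1 (median 0.54). PTX3, a soluble pattern recognition protein, read 11.62, 11.39 and 13.45 in exposed against 10.05, 9.27 and 9.67 in control skin (2.49 ± 0.35, adjusted p = 5.86e-06). CFB, factor B of the alternative complement pathway, read 10.21, 9.28 and 10.37 in exposed and 8.36, 7.17 and 7.94 in control skin (2.13 ± 0.26, adjusted p = 4.52e-07). ITIH4, an acute phase protein of pigs, rose by 1.51 ± 0.23 and LBP, the lipopolysaccharide-binding protein, by 1.15 ± 0.26. C3, the central complement component, read 12.48, 12.10 and 12.28 in exposed and 11.17, 10.38 and 10.44 in control skin (1.62 ± 0.48, adjusted p = 0.0222). The groups of C3 lay 0.93 apart, but its call was lost in 4 of the 6 fits without 1 array (without exposed replicates 1 or 3 and control replicates 2 or 3, adjusted p of 0.0782 to 0.0971). Without exposed replicates 1 or 3 and control replicate 3 the list had 6, 5 and 7 higher genes.

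Secreted antimicrobial genes were higher in 3 of 11 and lower in 1. LTF, the iron-binding lactoferrin, read 11.37, 11.45 and 11.60 in exposed against 9.80, 9.55 and 9.42 in control skin (1.88 ± 0.47, adjusted p = 0.00567). SLPI, an inhibitor of neutrophil elastase, rose by 1.57 ± 0.37, and TCN1, a vitamin B12 carrier of neutrophil granules, by 2.11 ± 0.48. DEFB1, an epithelial defensin gene, fell by 0.89 (adjusted p = 0.00801), a call that was lost without control replicate 1 (adjusted p = 0.124) or exposed replicate 2 (adjusted p = 0.0509). Prostaglandin and leukotriene genes were higher in 4 of 10, led by TBXAS1, the thromboxane synthase gene (1.57 ± 0.28), and PTGDS, a prostaglandin D synthase gene (1.14 ± 0.23). Both kept their calls in all 6 fits, while the list had 2 calls without exposed replicate 3 and 2 rises without control replicate 2.

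Interferon-stimulated genes lay above 0 in 22 of 22 measured cases with a median of 0.55, but 1 passed the test. In 7 of them all exposed arrays lay above all control arrays (20.6% of all genes), and the largest difference, 2.52, did not pass. The gene that passed was ISG20, an exonuclease gene, at 9.89, 7.98 and 10.08 in exposed against 8.24, 7.53 and 7.90 in control skin (1.43 ± 0.40, adjusted p = 0.0141). Its groups overlapped, and the call was lost without exposed replicates 1 or 3 or control replicate 2 (adjusted p of 0.0871 to 0.184). With the replicate block 6 of the 22 passed. Of 20 antigen presentation genes 1 passed, IFI30, a lysosomal thiol reductase gene (0.88 ± 0.18), and 2 passed with the replicate block. Differences were above 0 in 19 of the 20, and in 10 all exposed arrays lay above all control arrays (20.6% of all genes). The list mean was 11.68, 11.48 and 11.63 in exposed, 11.37, 11.26 and 11.20 in control and 10.50 in sham skin.

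Genes that keratinocytes use to build the outer epidermis were lower in exposed skin. Of 15 measured members of the differentiation and cornified envelope list 9 were lower and 0 higher in exposed skin, with a median of -1.31. In 12 of the 15 the 3 exposed arrays all lay below the 3 control arrays (11.3% of all genes), and 8 or 9 genes passed in every fit without 1 array. KRT10, the partner keratin of KRT1, read 10.73, 10.93 and 12.22 in exposed against 14.23, 14.04 and 14.23 in control skin (-2.88 ± 0.25, adjusted p = 2.43e-10). For both keratins exposed replicate 3 was the least reduced of the exposed arrays. CALML5, a calcium-binding protein of the outer epidermis, read 9.17, 9.30 and 9.69 in exposed and 12.53, 12.19 and 12.02 in control skin (-2.86 ± 0.32, adjusted p = 1.02e-07). SERPINB7, an epidermal protease inhibitor, read 7.48, 7.37 and 7.37 in exposed and 10.71, 10.19 and 9.65 in control skin (-2.78 ± 0.35, adjusted p = 8.55e-07). KRT2, a keratin of the upper suprabasal layers, read 7.86, 7.93 and 8.29 in exposed and 12.17, 9.00 and 10.93 in control skin (-2.67 ± 0.61, adjusted p = 0.00269). Its control arrays were spread over 3.18 log2 units, and without control replicate 1 it missed the threshold (adjusted p = 0.0533).

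The remaining called members of that list were smaller falls. HOPX, a homeodomain protein of differentiating keratinocytes, was lower by 1.99 ± 0.24 on the log2 scale, SPINK5, an inhibitor of the kallikreins that shed the cornified layer, fell by 1.46 ± 0.33, and the desmosomal and envelope genes DSP and PPL fell by 1.31 and 0.94, where PPL missed the threshold without exposed replicate 3 (adjusted p = 0.12). JUP, CST6, CDH1, KLK7, CLDN4 and IVL did not pass. IVL, the involucrin gene of the cornified envelope, read 10.37, 10.65 and 11.04 in exposed against 10.54, 10.07 and 10.09 in control skin, a difference of 0.45. AQP3, the water and glycerol channel of keratinocytes, read 11.19, 10.92 and 11.17 in exposed and 12.79, 12.21 and 12.67 in control skin (-1.46 ± 0.21, adjusted p = 8.58e-06). ESRP1, an epithelial splicing regulator, was at -1.42 ± 0.27 and RHBG, an ammonium transporter gene, at -1.62 ± 0.25, both past the test.

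Regulators of epidermal fate moved the same way, with 6 of 13 lower and 0 higher (median -0.55). GATA3, a factor for the skin barrier, read 7.82, 8.09 and 8.04 in exposed against 10.33, 9.90 and 9.79 in control skin (-2.02 ± 0.24, adjusted p = 2.17e-07). HES1, a Notch target that keeps suprabasal cells from ending differentiation too soon, read 9.59, 9.68 and 9.74 in exposed and 10.66, 10.51 and 10.80 in control skin (-0.98 ± 0.15, adjusted p = 1.71e-05). In both genes all exposed arrays were below all control arrays. OVOL1, BCL11A, KLF4 and JAG1 were lower by 0.76, 0.72, 0.55 and 0.45, of which KLF4 and OVOL1 lost the call without exposed replicate 3 (adjusted p = 0.154 and 0.0537) or control replicate 1 (adjusted p = 0.0677 and 0.135). JAG1 lost it without exposed replicates 1 or 3 or control replicate 2 (adjusted p of 0.0604 to 0.0747). Without exposed replicate 3 the list had 3 calls.

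**Figure D4:**
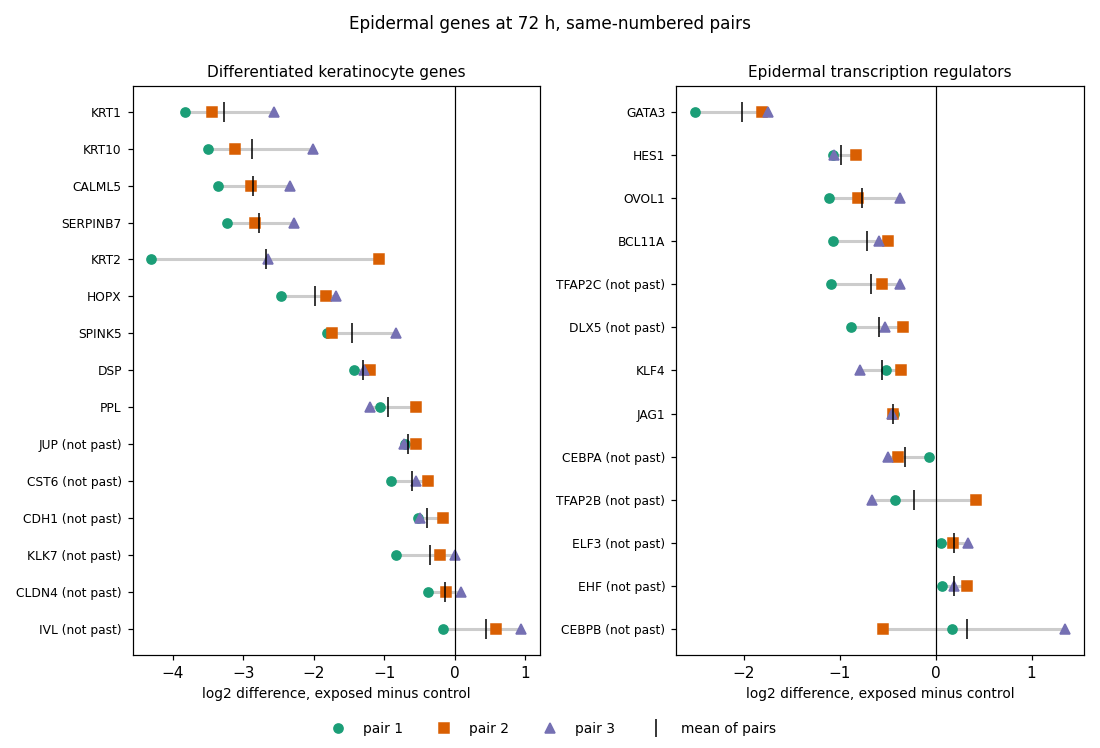
Log2 difference between exposed and control skin of the same replicate number at 72 h for 15 genes of differentiated keratinocytes (left) and 13 epidermal transcription regulators (right); symbols are the 3 pairs and the vertical tick is their mean. All pairs lie left of 0 for the 9 genes at the top of the left panel, from KRT1 to PPL, and IVL has a mean of 0.45 with pair 1 below 0.

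Basement membrane and basal keratinocyte genes had 2 lower of 6, and 2 in every fit without 1 array. COL7A1, the collagen of anchoring fibrils, read 8.47, 8.72 and 8.48 in exposed against 10.01, 9.45 and 9.71 in control skin (-1.16 ± 0.26, adjusted p = 0.0019). DST, which holds the hemidesmosome to keratin filaments, read 9.69, 10.13 and 9.53 in exposed and 10.53, 10.98 and 10.51 in control skin (-0.89 ± 0.15, adjusted p = 0.000122). In other epidermal lists 0 of 6 barrier lipid genes, 0 of 11 hair follicle and gland genes, 0 of 6 melanocyte genes and 0 of 2 activated keratinocyte genes passed in the limma fit. Of 17 sterol and fatty acid synthesis genes 1 passed, SQLE, the squalene epoxidase gene (-0.48 ± 0.16, adjusted p = 0.0484). That call was lost in all fits without 1 array except the one without control replicate 2, with adjusted p up to 0.233, and with the replicate block 4 genes of the list were lower.

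Genes of the provisional wound matrix moved in both directions. Of 19 wound matrix and matricellular genes 5 were higher and 3 lower. TNC, tenascin-C of healing wounds, read 11.62, 10.73 and 13.00 in exposed against 9.74, 7.93 and 8.39 in control skin (3.09 ± 0.40, 8.54-fold, adjusted p = 1.44e-06). SPP1, osteopontin, read 12.48, 13.17 and 12.44 in exposed and 10.52, 10.58 and 9.28 in control skin (2.57 ± 0.50, adjusted p = 0.000514), and here exposed replicate 2 was the highest. THBS1, thrombospondin-1, rose by 1.65 ± 0.34 and TGFB1 by 0.73 ± 0.17. The lower members were TGFB2, THBS2 and FN1, at -0.74, -0.61 and -0.51, and of the list 0 were called lower without exposed replicate 1 or exposed replicate 3, and 1 without control replicate 2. Another of the 4 FN1 probe sets lay at 0.032.

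Matrix proteases and their inhibitors were higher in 8 of 23 and lower in 0, with 7 to 9 called in the fits without 1 array. MMP1, the interstitial collagenase, read 8.85, 8.81 and 10.37 in exposed against 6.33, 5.14 and 6.41 in control skin (3.38 ± 0.58, 10.4-fold, adjusted p = 8.36e-05). Its control readings also lay below the median signals of the arrays. TIMP1, an inhibitor of matrix metalloproteinases, read 13.50, 13.26 and 14.16 in exposed and 12.37, 11.44 and 11.96 in control skin (1.72 ± 0.22, adjusted p = 1.51e-06). PLAU, the urokinase gene, rose by 1.29 ± 0.20, and the lysosomal cathepsin genes CTSZ and CTSD by 1.28 ± 0.20 and 0.80 ± 0.16. None of these genes had overlapping groups.

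Resident fibroblast and matrix genes were lower in 6 of 23 and higher in 1 (median -0.21). C1QTNF3, a secreted relative of adiponectin, read 8.60, 8.17 and 7.44 in exposed against 9.98, 10.08 and 11.04 in control skin (-2.30 ± 0.46, adjusted p = 0.00069). COL5A1, a collagen that sets fibril width, read 11.31, 12.08 and 11.53 in exposed and 12.36, 12.65 and 12.74 in control skin (-0.94 ± 0.20, adjusted p = 0.00119), though another COL5A1 probe set lay at 0.01. ASPN, the asporin gene of small proteoglycans, had overlapping groups (-1.03 ± 0.28), and without exposed replicate 3 it was at -0.60 and did not pass (adjusted p = 0.28), nor without control replicates 2 or 3 (adjusted p = 0.0878 and 0.0682). Without exposed replicate 3 or control replicate 3 the list had 3 lower genes, and with the replicate block 2 were higher and 8 lower.

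Nerve and Schwann cell genes, 6 measured, were lower in 3 and higher in 0 (median -0.52). In 2 others all exposed arrays lay above all control arrays, with a difference of up to 0.74 that did not pass. The lower genes were STMN2, NCAM1, a cell adhesion gene of nerve and muscle, and S100B, a marker of Schwann cells. NCAM1 read 7.09, 7.40 and 6.71 in exposed against 8.39, 8.29 and 8.55 in control skin (-1.34 ± 0.21, adjusted p = 2.4e-05). S100B read 8.84, 8.92 and 8.35 in exposed and 9.39, 9.27 and 9.14 in control skin (-0.56 ± 0.15, adjusted p = 0.012), and missed the threshold without exposed replicate 3 (adjusted p = 0.197) or control replicate 1 (adjusted p = 0.0664). The groups did not overlap in any of these 3 lower genes.

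Skeletal muscle genes, which mark biopsies that reached the muscle under the skin, had differences below 0 in all 23 measured cases, of which none passed in the limma fit (median -1.08, smallest adjusted p = 0.664). The mean of the 23 genes was 11.35, 11.22 and 10.37 in exposed and 11.68, 12.97 and 11.40 in control skin, or 11.0 ± 0.53 and 12.0 ± 0.84 (SD, n = 3 each), against 9.44 in the sham array. The 3 exposed means lay below the 3 control means, and that of the sham array below all of them. With this mean as a covariate 877 of the 896 called genes kept their call.

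Counts of vessel, fat and coagulation genes are to be read against the 9.12% higher and 4.12% lower of all genes. Of 18 endothelial genes 1 was higher, PDPN, the podoplanin of lymphatic endothelium, fibroblasts and activated keratinocytes, at 11.35, 11.09 and 12.06 in exposed against 10.17, 10.07 and 10.14 in control skin (1.37 ± 0.22, adjusted p = 3.89e-05). With the replicate block 4 endothelial genes passed, while 2 passed without exposed replicate 1 and 3 without exposed replicate 2. Of 13 smooth muscle and pericyte genes 0 passed in the limma fit, and 1 was lower with the replicate block. Of 17 adipocyte genes 2 were higher, CFD, the factor D protease of complement (0.80 ± 0.17), and RETN, the resistin gene, which macrophages also express. RETN read 7.03, 6.77 and 10.12 in exposed against 6.65, 6.35 and 6.66 in control skin (1.42 ± 0.36), and was at 0.35 without exposed replicate 3 and not past the test (adjusted p = 0.139). Of 14 coagulation and fibrinolysis genes 4 were higher, and 1 was without exposed replicate 3 and 2 without control replicate 2. TFPI2, a protease inhibitor related to the tissue factor pathway inhibitor, stayed past the test in all 6 fits (0.78 ± 0.15, and 0.50 without exposed replicate 3).

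Hypoxia and angiogenesis genes were higher in 4 of 14 and lower in 1. HMOX1, heme oxygenase, which is also counted among oxidative stress genes, read 11.77, 12.38 and 11.88 in exposed against 10.44, 10.28 and 10.09 in control skin (1.74 ± 0.23, adjusted p = 2.09e-06). ADM, the vasodilator adrenomedullin, rose by 1.20 ± 0.26 and ERO1A, an oxidase of disulfide formation, by 1.22 ± 0.25. P4HA2, a collagen prolyl hydroxylase gene, fell by 0.85 ± 0.20. Among growth factors and their receptors 3 of 22 were higher and 3 lower. AREG, amphiregulin, a ligand of the EGF receptor, read 8.24, 7.52 and 8.83 in exposed and 6.65, 6.10 and 6.46 in control skin (1.79 ± 0.24, adjusted p = 2.09e-06). IGF1 rose by 0.83 ± 0.17, although another IGF1 probe set lay at -0.06. FGFR2, the receptor of keratinocyte growth factor, read 7.86, 8.69 and 8.13 in exposed and 9.55, 9.77 and 9.42 in control skin (-1.35 ± 0.23, adjusted p = 7.23e-05). The list had 1 lower gene without exposed replicate 3 or control replicate 2.

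Genes of the DNA damage response, which alkylated DNA sets off, came next. Of 17 p53 target genes 6 were higher and 1 lower (median 0.47), with 5 to 7 higher in the fits without 1 array. CDKN1A, the p21 inhibitor of the cell cycle, read 11.27, 11.17 and 11.67 in exposed against 10.38, 9.82 and 10.07 in control skin (1.28 ± 0.16, adjusted p = 9.05e-07). BAX, a pore-forming protein of apoptosis, read 9.28, 9.20 and 9.00 in exposed and 8.30, 7.85 and 7.34 in control skin (1.33 ± 0.21, adjusted p = 3.08e-05). Neither gene's groups overlapped. GADD45A, a stress-induced inhibitor of growth, rose by 1.22 ± 0.22 and PHLDA3, an inhibitor of AKT, by 0.77 ± 0.12. DNA repair genes were higher in 3 of 25, a share near the 9.12% of all genes. MGMT, which removes alkyl groups from guanine, read 10.58, 10.61 and 10.80 in exposed and 9.47, 8.99 and 9.43 in control skin (1.37 ± 0.19, adjusted p = 3.53e-06). The others were MRE11 (0.69 ± 0.16) and FEN1 (0.32 ± 0.10), nucleases that were not called without exposed replicate 3 (adjusted p = 0.0615 and 0.186), nor FEN1 without exposed replicate 1 or control replicate 1 (adjusted p = 0.0856 and 0.178). The list had 1 call without exposed replicate 3 and 5 with the replicate block.

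Of 32 genes of S phase and mitosis 13 were higher and 0 lower, with a median of 0.34. TYMS, which makes thymidylate, read 9.95, 10.14 and 9.74 in exposed against 8.97, 8.59 and 8.46 in control skin (1.27 ± 0.27, adjusted p = 0.0012), with another TYMS probe set at 0.03. UBE2C, the ubiquitin-conjugating enzyme of mitotic exit, read 9.92, 10.11 and 10.06 in exposed and 9.20, 9.07 and 9.53 in control skin (0.76 ± 0.19, adjusted p = 0.00545). BIRC5, survivin of the chromosomal passenger complex, read 9.64, 9.81 and 9.55 in exposed and 8.89, 8.87 and 8.96 in control skin (0.76 ± 0.20, adjusted p = 0.00866). These 3 genes kept their calls in all 6 fits without 1 array, but the list count was 7 without either exposed replicate 2 or 3 and 6 without control replicate 2. In 21 of the 32 genes all exposed arrays lay above all control arrays (20.6% of all genes).

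Genes of the endoplasmic reticulum stress response, which folds or disposes of secreted proteins, were higher in 12 of 19 and lower in 0 (median 0.51). SDF2L1, a chaperone partner of the reticulum, read 9.30, 9.13 and 9.92 in exposed against 8.56, 7.92 and 8.68 in control skin (1.06 ± 0.22, adjusted p = 0.00112). DNAJC3, an inhibitor of the stress kinase PERK, read 9.07, 9.02 and 9.23 in exposed and 8.46, 8.30 and 8.49 in control skin (0.69 ± 0.15, adjusted p = 0.00147). ATF3, a stress-induced transcription factor, rose by 1.22 ± 0.38 but was at 0.80 without exposed replicate 3 and lost its call (adjusted p = 0.343), as it did without control replicates 1, 2 or 3 (adjusted p of 0.0789 to 0.0961). The number of list genes called was 3 without exposed replicate 3, 5 without control replicate 2 and 7 without control replicate 1.

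Oxidative stress genes were higher in 8 of 28 and lower in 1, with 6 to 9 higher in the fits without 1 array. NQO1, a quinone reductase driven by NRF2, read 12.01, 12.17 and 11.98 in exposed against 10.91, 9.87 and 10.32 in control skin (1.69 ± 0.32, adjusted p = 0.000401). SOD2, the mitochondrial superoxide dismutase, read 12.71, 11.71 and 13.29 in exposed and 11.39, 10.60 and 10.46 in control skin (1.76 ± 0.29, adjusted p = 6.63e-05). MT3, a metallothionein gene, was the lower one, at 8.29, 8.91 and 8.42 in exposed and 10.16, 9.61 and 9.86 in control skin (-1.34 ± 0.26, adjusted p = 0.000454). Heat shock protein genes were higher in 2 of 19 and lower in 2, or 4 and 3 with the replicate block. HSPA2, a member of the HSP70 family, read 8.71, 8.22 and 8.96 in exposed against 10.65, 10.26 and 10.32 in control skin (-1.78 ± 0.35, adjusted p = 0.000575), and HSP70.2, another member, fell by 0.68. The rises, DNAJA1 and HSPA4, were both lost without exposed replicate 3 (adjusted p = 0.355 and 0.152), exposed replicate 1 (adjusted p = 0.0826 and 0.0604) or control replicate 1 (adjusted p = 0.077 and 0.0586), and DNAJA1 also without control replicate 2 (adjusted p = 0.188). Of 15 cell death genes 4 were higher by 0.36 to 0.51 (CASP8, CFLAR, GSDMD and MCL1), none of which was called without exposed replicate 1 or 3, while 1 list gene was without control replicate 2 or 3 and the replicate block called 7.

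Amino acid and polyamine genes were higher in 8 of 23 and lower in 1 (median 0.58). Beside ARG1 and SDS, TAT, which starts the breakdown of tyrosine, read 7.69, 8.48 and 8.55 in exposed against 6.28, 6.04 and 6.42 in control skin (1.99 ± 0.27, adjusted p = 3.53e-06). BCAT1, the cytosolic branched-chain aminotransferase, rose by 1.44 ± 0.23 (adjusted p = 2.73e-05). PSAT1, an enzyme of serine synthesis, read 10.64, 10.95 and 10.67 in exposed and 11.62, 11.55 and 12.12 in control skin (-1.01 ± 0.16, adjusted p = 2.49e-05). Without exposed replicate 3 the list had 5 higher genes.

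Of 18 glycolysis and glucose transport genes 3 were higher. SLC2A3, the glucose transporter GLUT3, read 10.31, 10.20 and 12.13 in exposed against 8.85, 8.58 and 8.46 in control skin (2.25 ± 0.36, adjusted p = 3.89e-05). HK3, a hexokinase of leukocytes, read 9.89, 8.93 and 10.23 in exposed and 8.51, 8.25 and 8.20 in control skin (1.37 ± 0.25, adjusted p = 0.000208). None of 28 genes of the mitochondrial respiratory chain passed in the limma fit, and their differences lay between -0.26 and 0.21. CDA, the cytidine deaminase of pyrimidine salvage, read 9.87, 9.62 and 11.16 in exposed and 8.06, 7.43 and 7.82 in control skin (2.44 ± 0.34, adjusted p = 5.34e-06).

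Steroid, retinoid and drug metabolism genes were higher in 1 of 25 and lower in 2, and 1 was lower without exposed replicate 1 or control replicate 2. CYP2C91, a cytochrome P450 gene of the pig, read 10.27, 10.17 and 9.91 in exposed against 8.79, 8.27 and 7.91 in control skin (1.79 ± 0.31, adjusted p = 0.000124). STEAP4, a metalloreductase, was the 1 called of 11 iron and heme genes, at 10.41, 8.63 and 10.98 in exposed and 8.61, 7.86 and 7.31 in control skin (2.08 ± 0.43, adjusted p = 0.000861). Its groups were 0.019 apart. Of 7 circadian clock genes 2 were higher and 3 lower. RORA, a nuclear receptor of the clock, read 7.46, 7.50 and 7.26 in exposed against 8.92, 8.68 and 8.51 in control skin (-1.30 ± 0.21, adjusted p = 4.5e-05), and DBP, a clock output factor, fell by 0.75 ± 0.15. The rises, NFIL3 and BHLHE40, were at 0.64 and 0.62 without exposed replicate 3 and lost their calls (adjusted p = 0.178 and 0.153), as did BHLHE40 without control replicate 3 (adjusted p = 0.0502).

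The difference at 72 h was next set against those at 48 h and 24 h, each with 3 exposed and 3 control arrays of its own. Arrays of the 3 times were processed in separate periods, so time and period cannot be told apart. Of the 896 genes called at 72 h, 876 had the same sign at 48 h and 851 at 24 h. The calls shared with the 971 genes called at 48 h (14.4%) numbered 520, all of the same sign, which is 58.0% of the 72 h calls and 53.6% of those at 48 h. At 24 h 2456 genes were called (36.3%), and 658 were shared in sign, 73.4% of the 72 h calls and 26.8% of those at 24 h, with 4 of opposite sign. Of the 896, 158 were called at neither 48 h nor 24 h.

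No probe set passed the limma test of a change in the difference between 72 h and 48 h (0.0%), where 880 had an unadjusted p under 0.05 and the smallest adjusted p was 0.317. Leaving out exposed replicate 2 of 72 h gave 10 calls, and leaving out exposed replicate 1 of 72 h or exposed replicate 3 of 48 h gave 1. Between 72 h and 24 h, 720 probe sets passed (3.0%), 218 with a more positive (0.908%) and 502 with a more negative difference at 72 h (2.09%). With the replicate block the total was 1377 over all times and 483 with only the arrays of the times compared, and the replicate numbers are not known to pair the arrays at 24 h. The total was 445 without exposed replicate 2 of 72 h, 399 without control replicate 3 of 72 h and 412 without exposed replicate 1 of 24 h. Among genes, 78 were more positive (1.15%) and 275 more negative (4.07%) at 72 h.

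Of the 15 differentiated keratinocyte genes 2 had a more negative and 1 a more positive difference at 72 h than at 24 h. The list median was -1.22, -1.17 and -1.31 at 24, 48 and 72 h, with 13, 8 and 9 genes lower. The 2 were KRT1 and KRT10. KRT1 differed by -1.22, -2.24 and -3.28 at 24, 48 and 72 h, and KRT10 by -0.91, -1.73 and -2.88. Both changes between 24 h and 72 h passed the test (adjusted p = 0.00099 and 0.00077). Some inflammatory genes also had larger differences at 72 h. CCL3L1 differed by 0.51, 1.01 and 2.47 at 24, 48 and 72 h, and CLEC5A by 0.53, 1.20 and 2.12. S100A8 stood at 0.45, 0.91 and 1.95 at these times, and DPP4, a serine protease of the cell surface, at -0.41, 0.59 and 1.73 (change of 2.14 ± 0.41, adjusted p = 0.0014). At 72 h DPP4 read 10.13, 9.34 and 10.84 in exposed against 8.56, 8.31 and 8.24 in control skin.

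Others were closer to control at 72 h. PTX3 differed by 4.22, 2.62 and 2.49 at 24, 48 and 72 h, CCR1 by 3.65, 2.86 and 2.14, and GADD45A by 2.61, 1.54 and 1.22. NPM3, a nuclear chaperone of ribosome assembly, was at 2.72, 0.92 and 0.62, and did not pass at 72 h (adjusted p = 0.149). Of the endoplasmic reticulum stress list 5 of 19 and of the p53 list 3 of 17 were more negative at 72 h than at 24 h, beside 4.07% of all genes. In the S phase and mitosis list 8 of 32 were more positive and 1 more negative, beside 1.15% and 4.07%. CCNB1, cyclin B1, differed by -0.97 at 24 h, 0.64 at 48 h and 0.59 at 72 h, where it did not pass (adjusted p = 0.08).

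**Figure D5:**
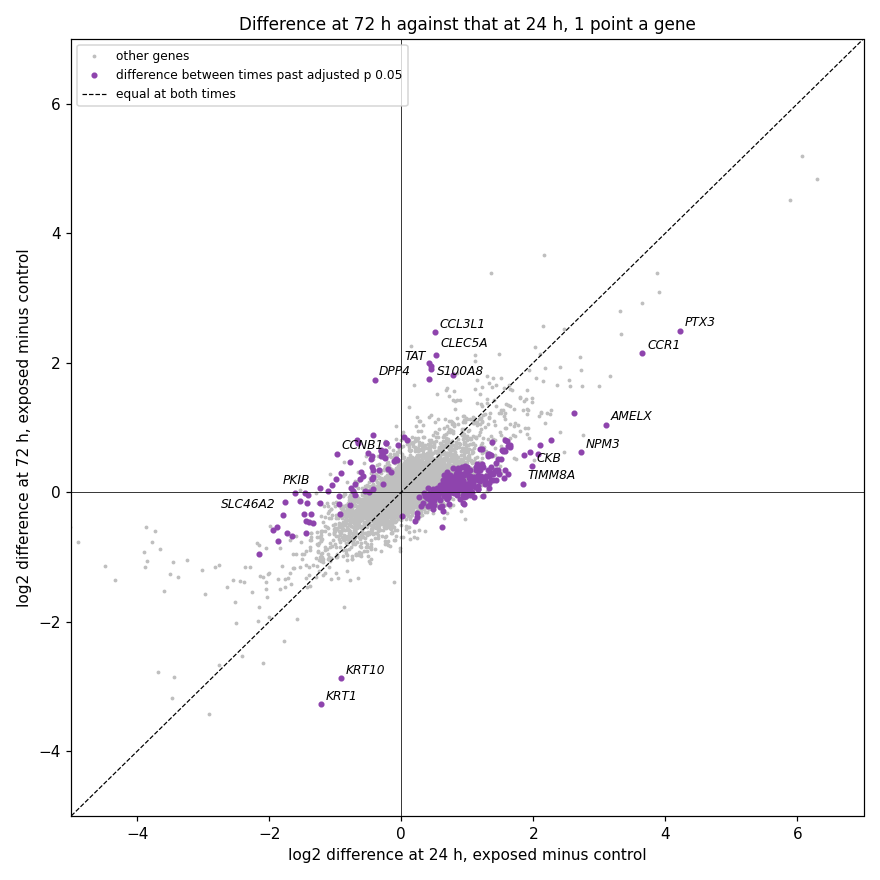
Log2 difference between exposed and control skin at 72 h (vertical) against that at 24 h (horizontal), 1 point for each of 6765 genes; purple points passed an adjusted p of 0.05 for the change between the times, and the dashed line marks equal differences. KRT1 and KRT10 lie well below the line, and DPP4, CCL3L1 and CLEC5A above it.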

How the data were processed

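The authors deposited 1 table of log2 signals for 63 arrays, made with RMA, and Partek is also named, per the submitters' processing notes, which give no versions. RMA subtracts background, equalises distributions and condenses probes, which narrows differences near background. The deposited log2 values were used as they stand: 24123 rows, less 124 control probe sets, left 23999. A linear model with 1 mean for each of 27 groups was fitted with limma 3.58.1 in R 4.3.3 (lmFit, eBayes, 36 residual degrees of freedom), with Benjamini-Hochberg adjusted p-values across the 23999 probe sets. The number of arrays limits the precision, and where replicates are not known to be separate animals p-values measure the spread between these arrays.

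GEO's platform annotation gave 1 symbol to 10069 probe sets, several to 198 and none to 13732, and 9961 of the symbols matched RefSeq genes of Sscrofa11.1. Of 1259 list places 743 were measured. Named genes are the 20 largest rises and 20 largest falls with 1 sign in 3 of 3 pairs, up to 5 called members of each list with the largest difference (or the 1 largest if none was called), and the 8 largest changes each way between times. Members, lists and tests were chosen with earlier results of these data known. CCL2, CCL4, CXCL16, CCL27, JAG1, THBS2, FN1 and IVL, and other list members given with 1 value or none, were named after their values were seen.

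The replicate numbers come from the sample titles. At 72 h same-numbered arrays deviated together from their group means over all probe sets (r of 0.358, 0.309 and 0.325). At 24 h and 48 h r lay between -0.345 and 0.283. No values for arrays of different numbers are given beside these, and at 72 h the numbers also follow the day of sacrifice. The correlations therefore cannot settle whether a number stands for 1 animal, and the replicate block is an alternative to the main fit. Scripts were tested on simulated data. The alternatives tried are named in the closing section.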

Additional observations from a re-analysis of the deposited data

Results flagged for a closer look

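Genes whose difference between exposed and control skin at 72 h was not that at 24 h are listed here, since the test of the change itself passed an adjusted p of 0.05 in the model over 63 arrays (72 h minus 24 h, log2 units). More negative at 72 h were NPM3 (-2.11), KRT1 (-2.06), AMELX (-2.06), KRT10 (-1.96), PTX3 (-1.73), TIMM8A (-1.71), CKB (-1.58), CCR1 (-1.51), GADD45A (-1.39), PTGES3 (-0.996), DNAJC3 (-0.95) and PHLDA3 (-0.60). More positive at 72 h were DPP4 (2.14), CCL3L1 (1.96), SLC46A2 (1.61), PKIB (1.60), CLEC5A (1.60), TAT (1.57), CCNB1 (1.57), S100A8 (1.50) and BIRC5 (0.99). KRT1 and KRT10 were lower than control at both times and further below it at 72 h. NPM3, TIMM8A, CKB, SLC46A2, PKIB and CCNB1 did not pass the test at 72 h itself. The 24 h and 72 h arrays were processed in separate periods, and the part of this in the changes cannot be told apart from time.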

How the results depend on the processing

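The total of 2317 probe sets at 72 h lay between 1081 and 2650 without 1 array, the higher ones between 662 and 1428 and the lower ones between 419 and 1222. With only the 72 h arrays in the fit it was 1168 (609 higher, 559 lower), with replicates 1 and 2 only, a choice made after seeing the data, 781 (443 and 338), and where a log2 change of 1 or more was also required, 446 (264 and 182). With the replicate block 1549 probe sets were lower. Between 72 h and 48 h the count of 0 became 0 to 10 without 1 array. The 720 probe sets between 72 h and 24 h became 399 to 823 without 1 array, 1377 with the replicate block, 319 with RNA extraction day as a covariate, 79 with the sham arrays as controls and 196 where the change had to reach 1. The 208 called list genes lay between 129 and 219 without 1 array, and were 131 with only the 72 h arrays, 104 with replicates 1 and 2 only and 99 where the change had to reach 1.

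Of the 156 named genes called, 72 kept direction and call in every alternative and 102 in all 6 fits without 1 array. With the replicate block 156 kept them, and with replicates 1 and 2 only 90 did. All 896 called genes kept their sign with replicates 1 and 2, where 329 were still called, and against the sham array. Both settings reuse exposed arrays by which the genes were called, so the shared sign is no further support. Genes not called at 72 h changed sign in some settings, and the cause was not tested. With the sham array as control ATP2A1 was at 1.94, CKB at -0.053, DES at 0.29 and SLC46A2 at 0.28. Without 1 array KRT18 lay between -0.00403 (exposed replicate 2) and 0.47, and TIMM8A between -0.0067 (control replicate 2) and 0.24. MS4A2 was at -0.039 with the muscle score as covariate, -0.049 with extraction day, -0.031 without exposed replicate 2, between -0.049 (control replicate 3) and 0.16 without 1 array, -0.038 with replicates 1 and 2 only and -0.00544 as the mean of its probe sets. PKIB was at 0.017 with the muscle score, and without 1 array lay between -0.22 and 0.18 (exposed replicate 3), with 0.11 without control replicate 1 and 0.077 without control replicate 2.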
